A study of Mus musculus with 9 samples.

Results

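Amino acid transporters are the membrane carriers that move amino acids into and out of cells and, in the kidney, return filtered amino acids to the blood. The members were all rows of the kidney count table whose mouse symbol belongs to the solute carrier families Slc1, Slc3, Slc6, Slc7, Slc36, Slc38 or Slc43 and that reached 10 counts in at least 3 libraries. The taurine carrier Slc6a6, the betaine carrier Slc6a12 and the cystine exchanger subunit Slc7a11 were left out by that rule. Of 56305 gene rows 61 had such a symbol, 3 were left out by name, 16 stayed under the count rule, and 42 were members. The 16 rows under the rule held at most 8 counts in any library, and among them the GABA carrier Slc6a11 had no count at all. Just inside the rule lay Slc36a2 and Slc7a3, which reached that count in 3 libraries each.

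The data are RNA-seq of mouse kidney tissue, with 9 libraries in 3 groups of 3. The first group was Pfkfb3 wild-type mice with the treatment sham, and the second was wild-type mice at day 14 after ischemia-reperfusion injury (IRI), made by clamping both renal arteries for 30 min. The third group was mice with a conditional Pfkfb3 deletion in proximal tubular cells, also at day 14 after IRI, and the design text calls the controls littermates. Pfkfb3 makes an activator of glycolysis, and the design text asks for its part in kidney fibrosis. The sources used here do not give the driver of the deletion or the age and sex of the mice, and a sham group of the knockout was not analysed here. The labels do not say whether each library is a different mouse. A p-value therefore speaks of the scatter among these libraries, which could be technical.

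The proximal tubule takes back nearly all filtered amino acids in 2 steps, through carriers of the luminal brush border and then through carriers of the basolateral membrane that faces the blood. Several carriers are pairs, in which a heavy subunit of the Slc3 family brings a light subunit of the Slc7 family to the membrane. Other members feed growing or activated cells, sit on lysosomes, or carry relatives of neurotransmitters. In whole tissue, fewer cells of a type and less RNA per cell cannot be told apart.

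Libraries held 15626792 to 19987842 counts, and members took 0.444% ± 0.0269 of them in sham, 0.273% ± 0.0101 in wild-type IRI and 0.362% ± 0.0205 in knockout IRI libraries (SD, n = 3). Levels are given in CPM, counts scaled to a common library size by the trimmed mean of M-values (TMM). The segment markers Umod, Slc34a1 and Aqp2 were present in all libraries, while the collecting duct marker Avpr2 had no count in sham replicate 2 and knockout replicates 2 and 3. The summed level of 7 early proximal markers ran from 12600 to 14300 CPM in sham, 2480 to 3590 in wild-type IRI and 12000 to 13500 in knockout IRI libraries. Of these, Gatm was listed at 0 in every sham and knockout library and held 1 count in the injured wild-type. Gatm is known to be abundant in kidney, so its 0 may be a fault of counting or annotation and is not read as absence. Summed markers of the late proximal tubule (5 genes) ran from 3480 to 3890, 557 to 952 and 4060 to 4540 CPM in the same order. Acy3 held most of this sum, with group means of 2960, 654 and 3530 CPM. Slc5a1, of the same list, was not called with injury (-0.20, adjusted p = 0.208). Summed macrophage markers (4 genes) ran from 91.2 to 121 CPM in sham, 988 to 1100 in wild-type IRI and 87.5 to 95.9 in knockout libraries, and fibroblast markers (4 genes) from 76.7 to 133, 1370 to 1820 and 98.5 to 190. The thick limb markers Umod and Slc12a1 fell with injury (log2 fold change -1.13 and -0.99, adjusted p = 0.000925 and 0.000561). Cldn16, the other thick limb marker listed, was not called (0.23, adjusted p = 0.307). The share of mitochondrial transcripts also moved with the groups, at 8.46% to 11.3% in sham, 6.08% to 7.2% in wild-type IRI and 12.7% to 13.9% in knockout IRI libraries. The part of these shifts in the results was not tested. The library of knockout replicate 1 stood apart from replicates 2 and 3, with the collecting duct marker Aqp2 at 1430 CPM against 477 and 536. Pfkfb3 itself, the targeted gene, lay at 17.3 to 25.2 CPM in knockout, 25.3 to 36.2 in injured wild-type and 20 to 21.9 in sham kidneys, and was lower in the injured knockout than in the injured wild-type (log2 fold change -0.62, adjusted p = 0.00773). Against sham Pfkfb3 was at 0.01 in the knockout (adjusted p = 0.988), so its level in whole kidney does not by itself show the deletion.

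With injury all 6 members listed as brush-border carriers fell, where roles were listed with earlier results of these data known. Slc36a2, which rose, was listed with the lysosomal and other carriers, a grouping that does not show where each carrier sits. Of 6 basolateral carriers 3 fell and 1 rose, and of 11 carriers of uptake for growth 5 rose and 1 fell. In injured wild-type against sham kidneys, 28 of 42 members were called (66.7%, against 58.2% of all tested genes), where called means an adjusted p under 0.05 in edgeR's quasi-likelihood test over 15974 genes. Of the members 18 were lower (42.9%, against 28.7% of all genes) and 10 higher (23.8%, against 29.5%). The 10 include Slc36a2, which met the count rule only through the injured wild-type libraries where it was high, so its call rests on that choice, here and between the injured groups. Likewise the 18 include Slc38a11, which met the rule only with the sham libraries, where it was high. The median log2 fold change was -0.34 over the members and 0.03 over all tested genes. With libraries scaled by total size alone, which raised the median of all genes to 0.57, 12 members were called lower and 17 higher, and the median of the members turned to 0.21.

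Between the injured groups 26 of 42 members were called (61.9%, against 55.9% of all tested genes). In knockout kidneys 14 were higher (33.3%, against 27.8%) and 12 lower (28.6%, against 28.1%) than in wild-type kidneys. These shares lay near those of all genes, and the median was 0.14 over the members and -0.01 over all genes. With library size alone the median of all genes moved from -0.01 to -0.59, 9 members were higher and 19 lower, and the median of the members turned to -0.44. Injured knockout and sham kidneys differed in 8 members (19.0%, against 17.6% of all tested genes), 2 higher (4.76%, against 8.13%) and 6 lower (14.3%, against 9.48%) in the knockout. Leaving out 1 library gave 1 to 3 higher and 1 to 7 lower, with 1 lower without sham replicate 2 or 3 or knockout replicate 3, 2 without sham replicate 1 and 3 without knockout replicate 2. Only Slc3a1 and Slc38a6 kept the call in all 9 of these fits. These comparisons share libraries, so their values are given side by side and no likeness between them is read as a result.

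**Figure D1:**
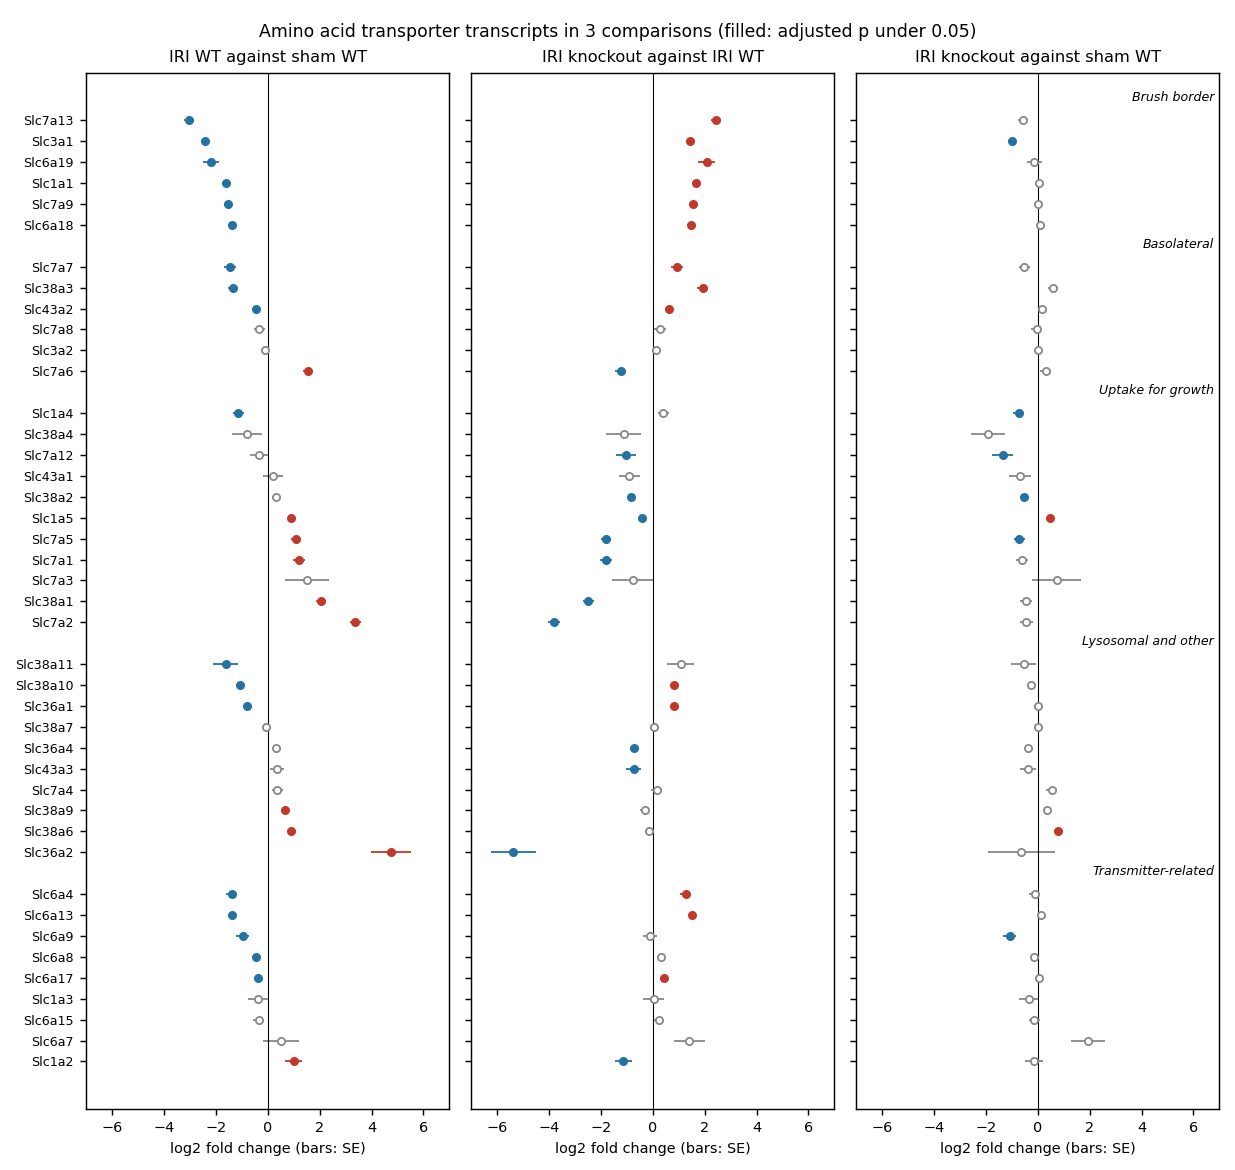
Fitted log2 fold change (x axis) of each of the 42 members, grouped by role, in 3 comparisons, with bars for the standard error and filled points for an adjusted p under 0.05. All 6 brush-border carriers lie left of 0 in the first panel and right of it in the second, while 5 carriers of uptake for growth are filled to the right in the first panel and 7 to the left in the second.

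Brush-border carriers held most of the transporter transcript in sham kidneys, 3330 ± 143 of 5000 ± 181 CPM summed over the 42 members, against 727 ± 71.4 of 2110 ± 111 CPM in wild-type IRI and 2610 ± 171 of 4180 ± 173 CPM in knockout IRI kidneys (SD, n = 3). All 6 fell with injury, by 1.39 to 3.03 on the log2 scale, and all 6 were higher in knockout than in wild-type injured kidneys, by 1.42 to 2.44. Of all tested genes 28.7% fell with injury and 27.8% were higher in the injured knockout than in the injured wild-type. With library size alone the 6 still fell with injury (log2 fold changes -2.49 to -0.84) and were still higher in the knockout (0.84 to 1.87). Under that scaling 82.0% of calls over all genes were up with injury, and 16.9% between the injured groups.

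Slc7a13 (chr4:19818725-19842218, plus strand, mm10) encodes AGT1, a light subunit of the late proximal tubule that carries aspartate, glutamate and cystine with the heavy subunit rBAT. It was the member with the highest level per kilobase of exon in sham kidneys, at 752 CPM per kb. Its level was 1620, 1670 and 1540 CPM in sham, 157, 268 and 165 in wild-type IRI and 1110, 909 and 1180 in knockout IRI libraries. The 3 groups did not overlap, with injured wild-type lowest and sham highest. Slc7a13 fell 8.18-fold with injury (log2 fold change -3.03, SE 0.20, adjusted p = 5.59e-07) and was 5.43-fold higher in knockout than in wild-type injured kidneys (2.44, SE 0.20, adjusted p = 1.92e-06). Between knockout and sham kidneys the log2 fold change was -0.59 (SE 0.19, adjusted p = 0.0515), just outside the threshold. It passed in other fits, among them DESeq2's test (adjusted p = 0.00964) and those without injured wild-type replicate 2 (0.0153) or 3 (0.0427).

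Slc3a1 (ENSMUSG00000024131, chr17:85028376-85064236, plus strand) encodes rBAT, the heavy subunit of the exchanger that takes up cystine and dibasic amino acids, and loss of this exchanger causes cystinuria. It lay at 339, 490 and 418 CPM in sham, 73.8, 94.1 and 66.2 in wild-type IRI and 194, 224 and 207 in knockout IRI libraries. Every knockout library lay above every injured wild-type library and below every sham library. Slc3a1 fell 5.33-fold with injury (log2 fold change -2.41, SE 0.16, adjusted p = 5.78e-07) and was 2.67-fold higher in the injured knockout than in the injured wild-type (1.42, SE 0.16, adjusted p = 1.76e-05). It was the only brush-border carrier called between knockout and sham kidneys in the reported edgeR fit, 2-fold lower in the knockout (-1, SE 0.16, adjusted p = 0.00505). Slc3a1 kept that call in every alternative fit. Slc7a13 lay just outside the threshold in the reported fit and was called lower in other edgeR fits, among them that with library size alone (adjusted p = 0.0370). The sum of the late proximal markers, most of it Acy3, stood at 4060 to 4540 CPM in knockout and 3480 to 3890 CPM in sham libraries. None of these late markers was called between knockout and sham kidneys. Of the early proximal markers, Lrp2 and Cubn were also lower in knockout than in sham kidneys (log2 fold change -0.86 and -0.57, adjusted p = 0.00767 and 0.0068), and Miox was higher (0.50, adjusted p = 0.0326). Slc3a1 overlaps Prepl on the other strand over 601 exonic bases. Whether the counting used strand is not known, so reads of such partners cannot be told apart.

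The promoters of Slc3a1 and of the light subunit gene Slc7a9 were looked at, and that of Slc3a1 is shown. The promoter sequence of Slc7a9 held none of the motifs given below. The 200 bases before the RefSeq start lie at chr17:85028147-85028346 on the plus strand of GRCm38.p6. Capitals mark the letters CAAAGTCCA, a binding sequence of the hepatocyte nuclear factor HNF4, from 39 to 31 bases before the start.

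Slc3a1: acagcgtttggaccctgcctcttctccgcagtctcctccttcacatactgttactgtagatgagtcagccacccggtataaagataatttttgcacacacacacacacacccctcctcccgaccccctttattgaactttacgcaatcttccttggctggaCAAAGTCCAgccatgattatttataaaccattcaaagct

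RefSeq promoter windows (250 bases before to 50 after a start) were on hand for 27 of 42 members, 42 windows in all. On either strand CAAAGTCCA was in 1 of these windows, that of Slc3a1, and in 0.475% of 32851 windows of all genes. The palindromic motif of the factor HNF1 was in 0 of the 42 windows and in 0.140% of all. The letters TGATGNAA, of the amino acid response element, were in 3 of the 42, from Slc1a4 and Slc7a7, and in 3.97% of all. No match of one motif overlapped a match of another, and such a match is a description of the sequence.

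Slc7a9 encodes b0,+AT, the light subunit that carries cystine and dibasic amino acids with rBAT. It lay at 148, 121 and 175 CPM in sham, 55.8, 54.2 and 42.9 in wild-type IRI and 142, 171 and 132 in knockout IRI libraries. The injured wild-type libraries were all lower than the other 6, and sham and knockout overlapped. Slc7a9 fell 2.90-fold with injury (log2 fold change -1.54, SE 0.16, adjusted p = 9.04e-06), was 2.92-fold higher in the injured knockout than in the injured wild-type (1.54, SE 0.16, adjusted p = 8.89e-06), and had a log2 fold change of 0.01 (SE 0.15, adjusted p = 0.977) between knockout and sham kidneys.

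Slc6a19 encodes B0AT1, the main sodium-coupled carrier of neutral amino acids of the early proximal tubule, whose loss causes Hartnup disorder. Its level was 142, 146 and 233 CPM in sham, 51.0, 34.0 and 29.0 in wild-type IRI and 105, 240 and 132 in knockout IRI libraries. Sham and knockout overlapped widely, and both lay above injured wild-type. It fell 4.57-fold with injury (log2 fold change -2.19, SE 0.32, adjusted p = 0.000124) and was 4.19-fold higher in the injured knockout (2.07, SE 0.32, adjusted p = 0.000192). Between knockout and sham the log2 fold change was -0.13 (SE 0.30, adjusted p = 0.805). Libraries of a group differed more for Slc6a19 than for the other 5, as its SE of 0.32 with injury against 0.12 to 0.20 shows.

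Slc6a18 encodes B0AT3, a carrier of glycine and alanine further along the tubule, and lies next to Slc6a19 on chromosome 13, 1.7 kb away on the same strand. It lay at 703, 808 and 786 CPM in sham, 266, 275 and 338 in wild-type IRI and 908, 667 and 842 in knockout IRI libraries. Sham and knockout overlapped, and injured wild-type lay below both. Slc6a18 fell 2.61-fold with injury (log2 fold change -1.39, SE 0.14, adjusted p = 8.92e-06) and was 2.75-fold higher in the injured knockout (1.46, SE 0.14, adjusted p = 6.45e-06).

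Slc1a1 encodes EAAC1, the carrier of glutamate and aspartate of the brush border. Its values were 227, 230 and 187 CPM in sham, 63.3, 80.3 and 66.5 in wild-type IRI and 235, 204 and 225 in knockout IRI libraries. Knockout and sham libraries shared 1 range, well above the injured wild-type. Slc1a1 fell 3.06-fold with injury (log2 fold change -1.61, SE 0.12, adjusted p = 1.30e-06) and was 3.16-fold higher in the injured knockout (1.66, SE 0.12, adjusted p = 1.17e-06). It overlaps a gene on the other strand over 2631 exonic bases.

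**Figure D2:**
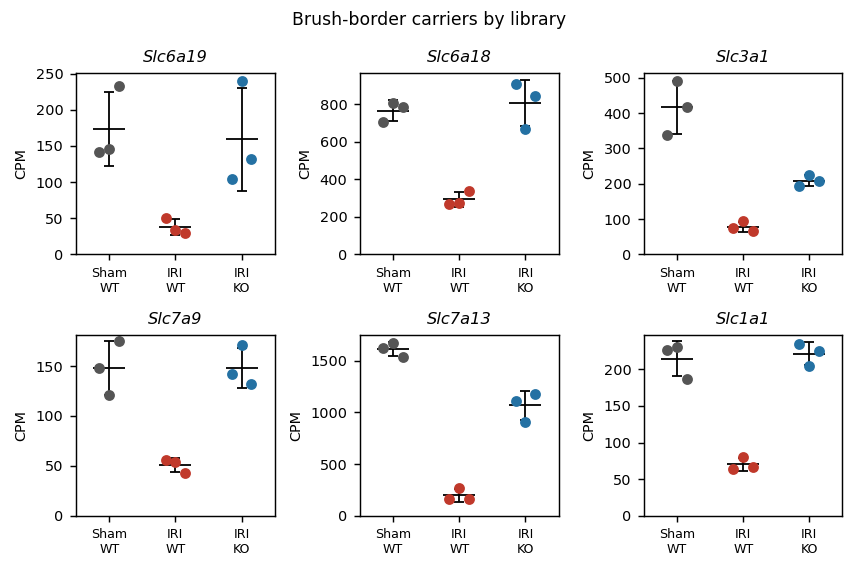
CPM (y axis, from 0) of the 6 brush-border carriers in each library, with bars for the mean and SD of 3 libraries. In every panel the 3 injured wild-type libraries lie below the other 6, and in the Slc3a1 panel the knockout libraries (194 to 224 CPM) lie between injured wild-type and sham.

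Basolateral carriers did not move as one. Slc7a7, Slc38a3 and Slc43a2 fell with injury, Slc7a6 rose, and Slc7a8 and the heavy subunit Slc3a2 were not called. Among all tested genes 28.7% fell and 29.5% rose. With library size alone 2 of the 6 rose and 2 fell with injury, where 82.0% of calls over all genes were up. Between knockout and sham kidneys no basolateral carrier passed in the reported edgeR fit of all 9 libraries. Slc38a3 passed DESeq2's test and some other edgeR fits, of which several are given below. Without a low-count filter Slc38a3 and Slc7a7 passed edgeR's test (0.58 and -0.54, adjusted p = 0.00114 and 0.00321).

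Slc7a7 encodes y+LAT1, the light subunit that passes dibasic amino acids to the blood and is lost in lysinuric protein intolerance. It lay at 99.0, 93.2 and 139 CPM in sham, 40.5, 52.2 and 28.1 in wild-type IRI and 66.8, 91.9 and 71.3 in knockout IRI libraries. The 3 groups did not overlap. Slc7a7 fell 2.74-fold with injury (log2 fold change -1.45, SE 0.22, adjusted p = 0.000175) and was 1.90-fold higher in the injured knockout (0.93, SE 0.22, adjusted p = 0.00379), a call that ended with library size alone (0.35, adjusted p = 0.151). Against sham the knockout was at -0.52 for Slc7a7 (SE 0.22, adjusted p = 0.116). Slc7a6, which encodes the related y+LAT2 of many cell types, went the other way, from 5.28, 5.54 and 5.89 CPM in sham to 15.8, 15.7 and 17.3 in injured wild-type, and was at 8.70, 4.67 and 7.22 in injured knockout libraries. It rose 2.92-fold with injury (1.55, SE 0.20, adjusted p = 5.15e-05) and was 2.37-fold lower in the injured knockout (-1.24, SE 0.20, adjusted p = 0.000261).

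Slc38a3 encodes SNAT3, a carrier that brings glutamine into proximal cells, where it feeds ammonia production. It lay at 61.6, 63.1 and 57.0 CPM in sham, 15.8, 27.4 and 29.1 in wild-type IRI and 76.4, 100 and 98.4 in knockout IRI libraries. Here the knockout libraries were the highest, above every sham library. Slc38a3 fell 2.51-fold with injury (log2 fold change -1.33, SE 0.20, adjusted p = 0.000137) and was 3.80-fold higher in the injured knockout (1.92, SE 0.20, adjusted p = 9.39e-06). Against sham the knockout was at 0.60 (SE 0.19, adjusted p = 0.0520), which passed with DESeq2's test (adjusted p = 0.0284), without injured wild-type replicate 1 or 3 (0.0161 and 0.0439) and without knockout replicate 1 (0.71, adjusted p = 0.0297).

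Slc43a2 encodes LAT4, a uniporter of large neutral amino acids. It lay at 77.1, 87.7 and 101 CPM in sham, 67.4, 60.8 and 66.5 in wild-type IRI and 90.5, 115 and 90.9 in knockout IRI libraries. The injured wild-type libraries were the lowest, with no overlap, and the other groups overlapped. It fell 1.36-fold with injury (log2 fold change -0.45, SE 0.13, adjusted p = 0.00997), a direction that turned with library size alone (0.10, adjusted p = 0.518), and was 1.52-fold higher in the injured knockout (0.61, SE 0.13, adjusted p = 0.00169), a call that ended with library size alone (0.02, adjusted p = 0.895).

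Slc3a2, the heavy subunit 4F2hc that most light subunits of this membrane need, lay at 175, 143 and 187 CPM in sham, 150, 182 and 133 in wild-type IRI and 180, 169 and 162 in knockout IRI libraries. All 3 groups overlapped, and the log2 fold change with injury was -0.12 (SE 0.13, adjusted p = 0.468). With library size alone Slc3a2 was higher after injury (0.42, adjusted p = 0.00893) and lower in the injured knockout than in the injured wild-type (-0.44, adjusted p = 0.00731). Slc7a8, which encodes its partner LAT2, lay at 86.8, 82.0 and 128 CPM in sham, 97.0, 66.9 and 72.7 in wild-type IRI and 72.3, 120 and 93.3 in knockout IRI libraries, with overlap throughout. Its log2 fold change with injury was -0.33 (SE 0.21, adjusted p = 0.215).

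**Figure D3:**
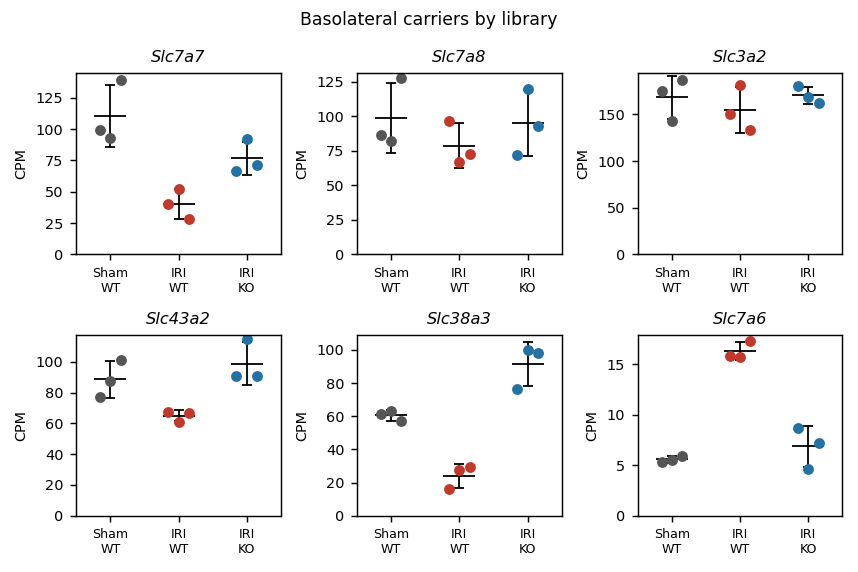
CPM (y axis, from 0) of the 6 basolateral carriers in each library, with bars for the mean and SD of 3 libraries. Slc7a7, Slc38a3 and Slc43a2 are lowest in injured wild-type libraries, Slc7a6 is highest there (15.7 to 17.3 CPM), and Slc3a2 and Slc7a8 overlap between groups.

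Of 11 carriers of uptake for growth, Slc7a2, Slc38a1, Slc7a1, Slc7a5 and Slc1a5 rose with injury and Slc1a4 fell. Among all tested genes 29.5% rose and 28.7% fell. In the injured knockout 7 of 11 were lower than in the injured wild-type, against 28.1% of all tested genes, and the other 4 were not called. Against sham the knockout was lower in 4 (Slc38a2, Slc1a4, Slc7a12 and Slc7a5) and higher in 1 (Slc1a5), against 9.48% and 8.13% of all tested genes. Under library size scaling 7 rose and 1 fell with injury, and 9 were lower in the injured knockout than in the injured wild-type. With that scaling 82.0% of calls over all genes were up with injury, and 16.9% between the injured groups. The 5 that rose were, like the summed macrophage and fibroblast markers given above, highest in injured wild-type kidneys. Their levels in the knockout differed, with Slc1a5 above sham and Slc7a5 below it. Whether the 5 rose in those cells was not tested.

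Slc7a2 (chr8:40862396-40922308, plus strand) encodes CAT2, a carrier of arginine, lysine and ornithine that activated macrophages are known to use. Its level was 5.28, 4.82 and 6.85 CPM in sham, 55.5, 49.8 and 70.8 in wild-type IRI and 3.80, 5.58 and 3.09 in knockout IRI libraries. The injured wild-type stood far above the other groups, which overlapped. Slc7a2 rose 10.4-fold with injury (log2 fold change 3.38, SE 0.22, adjusted p = 4.57e-07) and was 14.1-fold lower in the injured knockout (-3.82, SE 0.23, adjusted p = 3.59e-07). The relative Slc7a1, the more widely used arginine carrier CAT1, lay at 12.4, 10.9 and 11.7 CPM in sham, 27.3, 30.5 and 22.4 in wild-type IRI and 11.2, 6.41 and 5.36 in knockout IRI libraries. It rose 2.30-fold (1.20, SE 0.23, adjusted p = 0.000811) and was 3.50-fold lower in the injured knockout (-1.81, SE 0.24, adjusted p = 5.81e-05). Against sham the knockout was at -0.61 for Slc7a1 (adjusted p = 0.100), and at -0.98 without knockout replicate 1, the library that stood apart (adjusted p = 0.00868).

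Slc38a1 encodes SNAT1, a sodium-coupled carrier of glutamine and other small neutral amino acids. It lay at 3.28, 4.04 and 3.27 CPM in sham, 16.5, 14 and 13.3 in wild-type IRI and 2.48, 3.32 and 1.99 in knockout IRI libraries. Injured wild-type libraries were apart from the other 6. Slc38a1 rose 4.13-fold (log2 fold change 2.05, SE 0.20, adjusted p = 7.42e-06) and was 5.63-fold lower in the injured knockout (-2.49, SE 0.21, adjusted p = 2.68e-06). The more abundant Slc38a2, which encodes SNAT2, a carrier that cells raise when amino acids run short, lay at 119, 116 and 127 CPM in sham, 154, 155 and 148 in wild-type IRI and 106, 64.5 and 83.3 in knockout IRI libraries. The 3 groups did not overlap, with the knockout lowest. Its change with injury was 0.33 (SE 0.15, adjusted p = 0.0720), which passed with library size alone (0.88, adjusted p = 0.00037) and without knockout replicate 1 or 2 (0.0230 and 0.0241). It was 1.80-fold lower in the injured knockout than in the injured wild-type (-0.85, SE 0.15, adjusted p = 0.000482), and against sham the knockout was at -0.52 (adjusted p = 0.0350). That last call ended in the fits that left out any sham library, injured wild-type replicate 1, or knockout replicate 2 or 3 (adjusted p = 0.0649, 0.0919, 0.110, 0.0533, 0.0829 and 0.0943).

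Slc7a5 encodes LAT1, the light subunit that supplies leucine and other large neutral amino acids to dividing cells. It lay at 5.28, 5.09 and 5 CPM in sham, 9.70, 13.2 and 9.86 in wild-type IRI and 3.36, 2.79 and 3.23 in knockout IRI libraries. The 3 groups did not overlap, and the knockout was lowest. Slc7a5 rose 2.13-fold (log2 fold change 1.09, SE 0.18, adjusted p = 0.000322) and was 3.48-fold lower in the injured knockout (-1.80, SE 0.19, adjusted p = 1.17e-05). Against sham the knockout was 1.64-fold lower (-0.71, SE 0.20, adjusted p = 0.0303), a call that ended without any one sham library (adjusted p = 0.0576, 0.0902 and 0.0754) and without knockout replicate 2 or 3 (0.0840 and 0.0690).

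The exchangers Slc1a5 and Slc1a4, which encode ASCT2 and ASCT1, moved in opposite directions with injury. Slc1a5 lay at 64.6, 54.5 and 57.9 CPM in sham, 99.8, 106 and 123 in wild-type IRI and 91.4, 66.6 and 87.6 in knockout IRI libraries. The knockout lay between the other groups, with no overlap. Slc1a5 rose 1.85-fold (log2 fold change 0.89, SE 0.13, adjusted p = 0.000158) and was 1.34-fold lower in the injured knockout than in the injured wild-type (-0.42, SE 0.13, adjusted p = 0.0188). That difference lost its call without injured wild-type replicate 3 or knockout replicate 2 (adjusted p = 0.0765 and 0.0797). Against sham the knockout was at 0.47 (adjusted p = 0.0340), which ended without sham replicate 2 or 3 or knockout replicate 1 or 3 (0.132, 0.103, 0.0830 and 0.103). Slc1a4 lay at 49.1, 54.5 and 39.4 CPM in sham, 21.1, 27.5 and 16.7 in wild-type IRI and 35.7, 21.7 and 28.9 in knockout IRI libraries, so that the injured groups overlapped and sham was highest. It fell 2.19-fold (-1.13, SE 0.21, adjusted p = 0.000707). Between the injured groups it was at 0.40 (adjusted p = 0.127), and passed without injured wild-type replicate 2 (0.61, adjusted p = 0.0350) or knockout replicate 2 (0.58, adjusted p = 0.0385). The knockout was lower than sham (-0.73, SE 0.21, adjusted p = 0.0352), and this call ended without any one sham library (adjusted p = 0.0802, 0.136 and 0.0516), without injured wild-type replicate 1 (0.0516) and without knockout replicate 2 or 3 (0.105 and 0.0892).

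Slc7a12, a light-subunit-like carrier, lay at 22.8, 19.8 and 21.3 CPM in sham, 7.77, 14.1 and 29.1 in wild-type IRI and 5.70, 11.3 and 7.98 in knockout IRI libraries. The injured wild-type libraries spread over the range of both other groups. The knockout was lower than sham (log2 fold change -1.36, SE 0.40, adjusted p = 0.0373) and than injured wild-type kidneys (-1.03, SE 0.39, adjusted p = 0.0429). Without injured wild-type replicate 3 the latter was -0.39 (adjusted p = 0.292), and the change with injury went from -0.33 (adjusted p = 0.478) to -0.96 (adjusted p = 0.0178). Without knockout replicate 1 the adjusted p was 0.0798 against sham and 0.119 against injured wild-type, and without knockout replicate 3 it was 0.0993 and 0.105. Without any one sham library it was 0.0829 to 0.0936 against sham and 0.0536 to 0.0651 against injured wild-type. In mouse kidney, Slc7a12 and Slc7a13 are known to differ between the sexes. Here Xist, the transcript of the inactive X chromosome, was at 0 to 0.368 CPM and the Y-linked Ddx3y at 44.2 to 73.0 CPM in all 9 libraries. The cationic carrier Slc7a3, the uniporter Slc43a1 and the small neutral carrier Slc38a4 had group means under 5 CPM and were called in none of the 3 comparisons in the reported edgeR fit. Slc7a3 passed with injury without sham replicate 1 (3.60, adjusted p = 0.0155), but it met the count rule only with injured wild-type libraries, where it was highest. Slc43a1 passed with injury without sham replicate 2 (0.88, adjusted p = 0.0468), which also brought a call between the injured groups for Slc43a1 (-0.91, adjusted p = 0.0236).

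**Figure D4:**
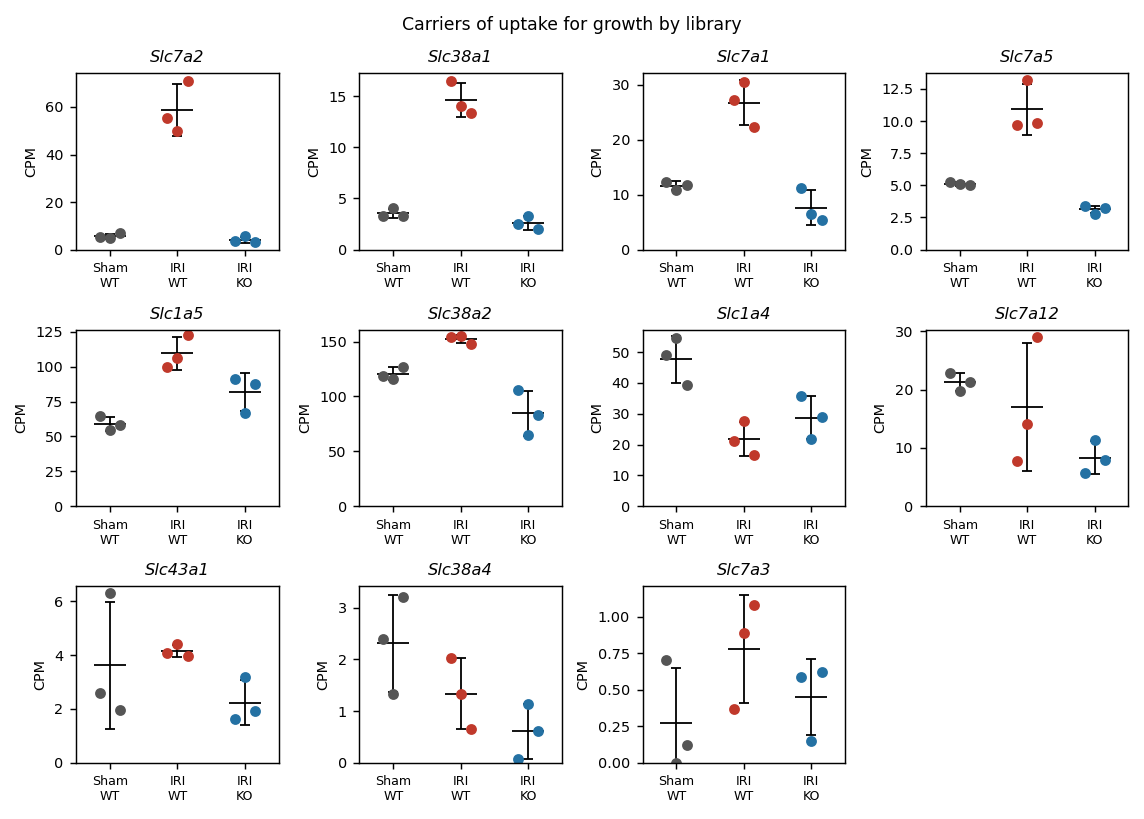
CPM (y axis, from 0, a scale of its own in each panel) of the 11 carriers of uptake for growth in each library, with bars for the mean and SD of 3 libraries. Slc7a2 stands at 49.8 to 70.8 CPM in injured wild-type and under 7 CPM in all other libraries, and Slc7a12 is spread widely in injured wild-type kidneys.

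The transcripts of the amino acid response, by which cells short of amino acids raise enzymes and carriers, were read beside these carriers from a list of 13 genes. With injury 7 rose (Asns, Trib3, Phgdh, Mthfd2, Aldh18a1, Pycr1 and Eif4ebp1) and 2 fell (Sesn2 and Shmt2), with a median log2 fold change of 0.62, where 29.5% of all tested genes rose and 28.7% fell. Under library size scaling 9 rose and 2 fell, with a median of 1.17 where that of all genes was 0.57. The asparagine synthetase Asns rose from 6.84 ± 1.18 to 13.9 ± 4.40 CPM and was at 4.08 ± 1.02 CPM in the injured knockout (SD, n = 3). The serine synthesis enzyme Phgdh rose 2.74-fold (1.46, SE 0.12, adjusted p = 2.59e-06), and was below its sham level in the knockout (-1.02, SE 0.14, adjusted p = 0.00492). The leucine sensor Sesn2, abundant in sham kidneys at 214 ± 53.8 CPM, fell 5.27-fold (SD, n = 3). The factor that drives this response, Atf4, was at -0.16 on the log2 scale (SE 0.16, adjusted p = 0.414). In the injured knockout against the injured wild-type 2 of the 13 were higher and 6 lower, with a median of -0.94, against 27.8% and 28.1% of all tested genes.

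Among 10 carriers grouped as lysosomal and other, 3 fell and 3 rose with injury, shares near the 28.7% and 29.5% of all tested genes. The grouping does not show where each carrier sits, and Slc36a2 was among the 3 that rose. With library size alone 1 fell and 7 rose, where 82.0% of calls over all genes were up. Slc38a10, a widely expressed carrier of glutamine and other amino acids, lay at 186, 203 and 205 CPM in sham, 84.7, 105 and 92.9 in wild-type IRI and 170, 169 and 159 in knockout IRI libraries, and the groups did not overlap. It fell 2.1-fold (log2 fold change -1.07, SE 0.10, adjusted p = 5.74e-06) and was 1.76-fold higher in the injured knockout (0.81, SE 0.10, adjusted p = 4.40e-05), the latter not called with library size alone (0.23, adjusted p = 0.0569). Slc36a1, which encodes the proton-coupled lysosomal carrier PAT1, lay at 80.9, 97.3 and 97.0 CPM in sham, 54.7, 57.7 and 44.0 in wild-type IRI and 110, 90.5 and 78.3 in knockout IRI libraries. Injured wild-type libraries were lowest, and the other groups overlapped. It fell 1.76-fold (-0.81, SE 0.14, adjusted p = 0.000522) and was 1.78-fold higher in the injured knockout (0.83, SE 0.14, adjusted p = 0.000471), and neither was called with library size alone (-0.27 and 0.25).

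Slc36a2, which encodes PAT2, a carrier of glycine and proline, is a neighbour of Slc36a1 on chromosome 11, 19.3 kb away on the other strand. It had 8, 0 and 0 counts in the sham, 86, 74 and 131 in the injured wild-type and 2, 2 and 0 in the injured knockout libraries. It was near absent in 6 libraries and clearly counted in the 3 injured wild-type ones, at 4.29 ± 1.21 CPM (SD, n = 3). The injured wild-type libraries are the 3 that brought Slc36a2 over the count rule, so its values are a description with no test. All sham counts came from replicate 1. With all 3 sham libraries the fitted difference was 26.6-fold. Against sham replicates 2 and 3 alone, at a floor of 3 counts over the pair, Slc36a2 was at least 49.9-fold higher. That bound leaves out the sham library that held counts. The floor covers counting error only.

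Slc38a6, of the same family, was the other member that differed from sham in the knockout in every alternative fit. It lay at 10.6, 11.9 and 11.5 CPM in sham, 19.5, 20.8 and 23.2 in wild-type IRI and 22.0, 16.9 and 19.3 in knockout IRI libraries, so that both injured groups overlapped above sham. It rose 1.87-fold with injury (log2 fold change 0.90, SE 0.14, adjusted p = 0.000174), was 1.71-fold higher in knockout than in sham kidneys (0.78, SE 0.14, adjusted p = 0.00726), and was at -0.13 between the injured groups (SE 0.14, adjusted p = 0.455). With library size alone that last difference was called (-0.71, adjusted p = 0.00127). Slc38a9, a lysosomal sensor of arginine, lay at 16.8, 13.6 and 15.6 CPM in sham, 22.7, 23.3 and 27.5 in wild-type IRI and 19.7, 15.5 and 24.1 in knockout IRI libraries, where the knockout overlapped both other groups. It rose 1.60-fold with injury (0.68, SE 0.17, adjusted p = 0.00439).

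Slc43a3, a carrier of purine nucleobases by its known function, lay at 59.9, 46.2 and 42.1 CPM in sham, 74.0, 50.7 and 65.5 in wild-type IRI and 19.0, 44.3 and 50.3 in knockout IRI libraries. The low value was that of knockout replicate 1, in which endothelial markers were also low (Pecam1 at 24.5 CPM against 58.3 and 54.4). The knockout was lower than the injured wild-type (log2 fold change -0.74, SE 0.29, adjusted p = 0.0442), and at -0.41 without that library (adjusted p = 0.0691). Leaving out any other library except injured wild-type replicate 2 or knockout replicate 3 also ended the call. Slc36a4 was lower in the injured knockout than in the injured wild-type, at 8.80 ± 1.04 against 14.4 ± 1.72 CPM (SD, n = 3; -0.71, adjusted p = 0.00281). Slc38a7, the lysosomal glutamine carrier SNAT7, lay at 21.9, 21.7 and 29.0 CPM in sham, 23.2, 25.3 and 21.2 in wild-type IRI and 24.4, 22.5 and 25.6 in knockout IRI libraries, with full overlap and log2 fold changes of -0.06, 0.06 and 0.00 (SE 0.14 each). Under library size scaling Slc38a7 was called higher with injury (0.49, adjusted p = 0.00965) and lower in the injured knockout (-0.52, adjusted p = 0.00674). Slc7a4 was called with injury only in other fits, with library size alone (0.93, adjusted p = 0.0022) and without sham replicate 1 (0.61, adjusted p = 0.0259), and between knockout and sham without sham replicate 1 (0.78, adjusted p = 0.0293). Slc38a11, on 20 to 48 counts per group, fell with injury (-1.62, adjusted p = 0.0136), a call that ended without injured wild-type replicate 1 or 2 (0.0601 and 0.0536) and with library size alone (0.0704). It met the count rule only with the sham libraries, where it was high, so its call rests on that choice.

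Among 9 carriers related to neurotransmitters, 5 fell with injury and 1 rose, where 28.7% of all tested genes fell and 29.5% rose. With library size alone 2 fell and 1 rose, where 82.0% of calls over all genes were up. Slc6a13, which encodes GAT2, a carrier of GABA, betaine and taurine of the basolateral tubule membrane, lay at 143, 163 and 123 CPM in sham, 57.7, 57.6 and 50.8 in wild-type IRI and 172, 145 and 155 in knockout IRI libraries. Injured wild-type libraries were lowest, and sham and knockout overlapped. It fell 2.58-fold (log2 fold change -1.37, SE 0.12, adjusted p = 3.22e-06) and was 2.84-fold higher in the injured knockout (1.51, SE 0.12, adjusted p = 1.85e-06). The creatine carrier Slc6a8 lay at 196, 207 and 241 CPM in sham, 163, 171 and 134 in wild-type IRI and 226, 197 and 151 in knockout IRI libraries, and the injured groups overlapped. It fell 1.37-fold with injury (-0.46, SE 0.15, adjusted p = 0.0225), a direction that turned with library size alone (0.08) and a call that ended without sham replicate 3 (adjusted p = 0.0868) or injured wild-type replicate 3 (0.0812). Between the injured groups it passed without knockout replicate 3 (0.45, adjusted p = 0.0225).

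Slc6a15, which encodes the neutral amino acid carrier B0AT2, lay at 47.3, 57.0 and 45.4 CPM in sham, 31.3, 44.9 and 41.4 in wild-type IRI and 63.9, 33.2 and 40.1 in knockout IRI libraries. Knockout libraries overlapped both other groups, and no comparison was called (log2 fold change -0.35 with injury, SE 0.22, adjusted p = 0.188). The others lay under 20 CPM. The serotonin carrier Slc6a4 fell from 6.82 ± 1.49 to 2.60 ± 0.109 CPM and was at 6.27 ± 0.863 CPM in the injured knockout (SD, n = 3; -1.39 and 1.27, adjusted p = 0.000198 and 0.000427). The glycine carrier Slc6a9 was lower than in sham, at 12.4 ± 2.98 CPM, in both the injured wild-type (6.3 ± 1.5) and the injured knockout (5.83 ± 1.55; SD, n = 3; -0.97 and -1.09, adjusted p = 0.00685 and 0.0198). The knockout call of Slc6a9 ended without sham replicate 2 or 3 or knockout replicate 3 (adjusted p = 0.0795, 0.0768 and 0.0644), and the call with injury ended with library size alone (-0.44, adjusted p = 0.148). The gene overlaps 3 others on the other strand.

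The glutamate carrier Slc1a2 rose with injury (log2 fold change 1, adjusted p = 0.0180) and was lower in the injured knockout (-1.14, adjusted p = 0.0106). It rested on injured wild-type replicate 1, at 12.9 CPM against 8.67 and 5.34, and both calls ended without it (0.65, adjusted p = 0.103, and -0.79, adjusted p = 0.0580), and the first also without sham replicate 3 (adjusted p = 0.0622). The vesicular carrier Slc6a17 fell with injury (-0.39, adjusted p = 0.0454) and was higher in the injured knockout (0.44, adjusted p = 0.0301), and both directions turned with library size alone (0.15 and -0.14). The first call ended without sham replicate 2 (adjusted p = 0.259), any injured wild-type library (0.0679 to 0.135) or knockout replicate 3 (0.0505), and the second without injured wild-type replicate 1 or 3 or knockout replicate 2 (0.0994, 0.0596 and 0.0700). The glutamate carrier Slc1a3 was not called in any comparison. The proline carrier Slc6a7 had 0, 9 and 6 counts in the sham, 10, 7 and 11 in the injured wild-type and 17, 14 and 15 in the knockout libraries, which were highest without overlap. Its knockout values were 1.40 against injured wild-type and 1.92 against sham (adjusted p = 0.0664 and 0.0626). The first passed in a fit of those 2 groups (adjusted p = 0.0141) and without sham replicate 1 (0.0136), and the second without a low-count filter (0.0479). Slc6a7 met the count rule only with the knockout libraries, where it was highest, so these values rest on that choice.

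Members that neighbour each other in the genome were compared next, since position was not part of the rule. The 3 glutamine-type carriers Slc38a1, Slc38a2 and Slc38a4 lie in a row on chromosome 15, with gaps of 44.5 and 295.1 kb, and had log2 fold changes with injury of 2.05, 0.33 and -0.79. Slc7a7 and Slc7a8, 304.4 kb apart on chromosome 14, were at -1.45 and -0.33. Slc43a1 and Slc43a3, 73.0 kb apart on chromosome 2, were at 0.19 and 0.36, neither called. Of these neighbours Slc6a18 and Slc6a19 were the pair in which both members were called in the same direction with injury.

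Ratios between members within a library do not depend on how libraries are scaled, and were taken per kilobase of exon for 6 pairs or trios of members. Slc7a13 over Slc7a9, the 2 light subunits that share rBAT, was 13.7, 17.3 and 11.0 in sham, 3.52, 6.18 and 4.81 in wild-type IRI and 9.75, 6.64 and 11.2 in knockout IRI libraries. The ratio was lowest in injured wild-type kidneys without overlap, and the knockout overlapped sham. The ratio of the heavy subunits, Slc3a2 over Slc3a1, was 0.332, 0.188 and 0.287 in sham, 1.31, 1.24 and 1.29 in wild-type IRI and 0.598, 0.487 and 0.502 in knockout IRI libraries. It separated all 3 groups, with the knockout between the others. The ratio of Slc7a5 over Slc7a8 was 0.0821, 0.0838 and 0.0528 in sham, 0.135, 0.266 and 0.183 in wild-type IRI and 0.0628, 0.0313 and 0.0468 in knockout IRI libraries, with the injured wild-type highest. Slc3a1 over the sum of Slc7a9 and Slc7a13 was 0.184, 0.261 and 0.235 in sham, 0.345, 0.285 and 0.313 in wild-type IRI and 0.149, 0.202 and 0.152 in knockout IRI libraries, so that injured wild-type was highest and the others overlapped. For Slc6a18 over Slc6a19 the ratio was 3.82 to 6.27, 5.9 to 13.2 and 3.15 to 9.79 in the same order, with overlap of all groups. For Slc7a7 over Slc7a9 it was 0.541 to 0.640, 0.529 to 0.777 and 0.379 to 0.435, where sham and injured wild-type overlapped and the knockout was lowest.

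**Figure D5:**
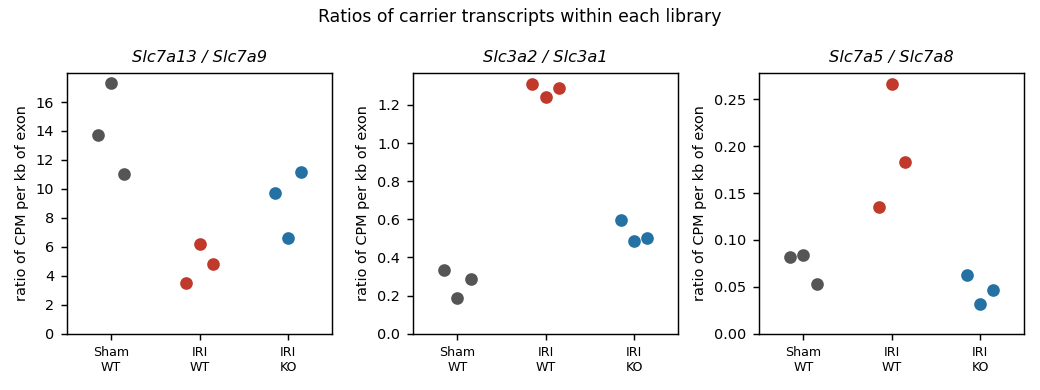
Ratio of the levels of 2 members per kilobase of exon (y axis, from 0) in each library, for 3 pairs, 3 points per group. Slc3a2 over Slc3a1 separates the 3 groups (0.188 to 0.332, 1.24 to 1.31 and 0.487 to 0.598), while for Slc7a13 over Slc7a9 the injured wild-type is lowest (3.52 to 6.18).

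Within the sham and knockout groups some carriers of the early tubule shared their highest library. Slc6a19, Slc7a8 and the glucose transporter Slc5a2, a marker of the early proximal tubule, were highest in sham replicate 3 and in knockout replicate 2. Slc5a2 stood at 154, 187 and 311 CPM in sham and 78.1, 227 and 134 in knockout libraries, beside 142, 146 and 233 and 105, 240 and 132 for Slc6a19. Slc6a18 went otherwise, lowest in knockout replicate 2. These genes were chosen after their values were seen, and the shared highest library is a description.

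Partners and other carriers of the same step, a list of 12 genes of which 11 were tested, fell in 8 cases with injury and were otherwise not called, with a median log2 fold change of -0.81, where 28.7% of all tested genes fell. Scaled by library size alone, 3 fell and 3 rose, with a median of -0.27. Collectrin, encoded by Cltrn, which brings Slc6 carriers to the brush border, lay at 1630, 1200 and 1340 CPM in sham, 535, 462 and 476 in wild-type IRI and 1560, 1590 and 1440 in knockout IRI libraries. It fell 2.84-fold (log2 fold change -1.51, SE 0.13, adjusted p = 3.11e-06). The Slc6 family gene Slc6a20b, whose symbol ends in a letter and so lay outside the rule, fell 5.71-fold from 350 ± 30.4 to 61.3 ± 8.82 CPM (SD, n = 3). Slc6a20b was at 250 ± 18.3 CPM in the injured knockout (SD, n = 3), below sham (-0.49, adjusted p = 0.0225). Its near copy Slc6a20a was at 15 ± 0.832, 15 ± 3.72 and 12.8 ± 2.94 CPM in sham, injured wild-type and knockout (SD, n = 3), and reads shared by the 2 copies may be split uncertainly. The glutathione-splitting enzyme Ggt1 fell 4.79-fold with injury and was at 0.00 between knockout and sham kidneys (SE 0.11, adjusted p = 0.985). In the injured knockout against the injured wild-type 7 of the 11 were higher, against 27.8% of all tested genes, and the others were not called, while with library size alone 3 were higher and 3 lower.

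Of the carriers left out by name, Slc6a6 fell 1.76-fold with injury (adjusted p = 0.00137) and was no higher in the knockout, at 0.07 against the injured wild-type (SE 0.17, adjusted p = 0.761) and -0.75 against sham (adjusted p = 0.0139). Slc7a11 lay at 0.309 ± 0.181 CPM in sham, 1.44 ± 0.676 in wild-type IRI and 0.119 ± 0.111 in knockout kidneys (SD, n = 3), and Slc6a12 was not tested.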

How the data were processed

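The deposited file holds counts per Ensembl gene for 9 mouse kidney libraries, not normalised, as its whole numbers show. The submitters' processing notes name the build mm10 and DESeq2 1.16.1 without a role; for the aligner, counter, annotation release and strand setting nothing is given in the sources used here. GENCODE M21 of the same build gave symbols, positions and exon lengths (summed over merged exons) for 55141 of 56305 identifiers. Coordinates are mm10.

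edgeR 4.0.16 in R 4.3.3 fitted a quasi-likelihood model with 1 term per group to all 9 libraries (filterByExpr, 15974 genes tested, all 42 members among them; TMM; 2-sided; Benjamini-Hochberg over all tested genes; threshold 0.05). The SE is the log2 fold change divided by the square root of F. The procedure was run on simulated data in which far fewer genes changed than were called with injury, so that run does not test the scaling. Members of at least 20 CPM in a group are given by library. Alternatives were DESeq2 1.42.0, other scalings and filters, 2-group fits, a replicate block, an adjusted p under 0.01 and leaving out each library. Members, lists and roles were chosen with earlier results of these data known. Deviations of libraries with the same replicate number correlated at -0.12 to 0.06 between groups. With 3 libraries per group this does not settle whether libraries were paired. No 2 columns were identical. Ratios within a library are given without a test.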

Additional observations from a re-analysis of the deposited data

How the results depend on the processing

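Over all alternatives 2125 member values were set against the reported ones. Of these 8 turned direction with a call on either side, all with library size alone, and 60 values called in neither fit changed sign. With library size alone the turned values were, with injury, Slc38a7 0.49, Slc3a2 0.42, Slc43a2 0.10, Slc6a17 0.15 and Slc6a8 0.08, and between the injured groups Slc38a7 -0.52, Slc3a2 -0.44 and Slc6a17 -0.14 on the log2 scale. With that scaling 82.0% of calls over all genes were up with injury, against 50.6%, and 16.9% against 49.7% between the injured groups. The counts of members were then 17 higher and 12 lower with injury (median 0.21), 9 higher and 19 lower between the injured groups (median -0.44), and 1 higher and 7 lower between knockout and sham.

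Between knockout and sham kidneys, without a low-count filter 4 members were higher and 10 lower. DESeq2's test called 3 higher and 9 lower, a change of 1.5 times that adds Slc38a3, Slc38a4, Slc7a1 and Slc7a13. Without the filter 29048 genes were tested rather than 15974. Of calls over all genes 42% were up without the filter and 43.8% with DESeq2's test, against 46.1% in the reported fit. The share of all genes called in these fits is not given here. At an adjusted p under 0.01 the knockout against sham held 1 higher and 1 lower member, and between the injured groups 8 rather than 12 were then lower. Leaving out a library gave 1 to 3 higher and 1 to 7 lower members. The other 2 comparisons gave 9 to 12 higher and 16 to 18 lower with injury, 13 to 15 higher and 9 to 12 lower between the injured groups, and medians of -0.38 to -0.24, 0.08 to 0.23 and, for knockout against sham, -0.26 to -0.04.

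Of 28 members called with injury 24 kept the call without any one library, as did 21 of 26 between the injured groups and 2 of 8, Slc3a1 and Slc38a6, between knockout and sham. Whether the replicate numbers of the labels pair libraries is not known. With the replicate block 10 were higher and 17 lower with injury, 14 and 11 between the injured groups, and 2 and 4 between knockout and sham. The causes of these moves were not tested. Members under 1 CPM in a group rest on few counts.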
